A study of Mus musculus with 69 samples.

Results

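ATAC-seq peaks were compared between WT J1 mouse embryonic stem cells (ESCs) and the H3.3K27R clone Mut18. The peaks of chromosomes 1 to 19 in the 2 WT lists and the 2 Mut18 lists were merged wherever they overlapped by at least 1 bp, which gave 84265 regions, against 86953 when the lists of all 6 ATAC-seq libraries of the study were merged in the same way. Of the 84265 regions, 50227 held a peak in all 4 lists, 4338 in both WT lists and neither Mut18 list (WT-only), and 1441 in both Mut18 lists and neither WT list (Mut18-only). TEAD and AP-1 motifs and copies of 2 repeated sequences were more frequent in WT-only regions than in all regions, and KLF and ESRRB motifs in Mut18-only regions. Among regions held by all 4 lists, a comparison of ranks by limma called 32 higher and 109 lower in Mut18 (adjusted p below 0.05). With ranks taken within each chromosome, it called 0 in either direction.

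J1 is a mouse ESC line of the 129S4/SvJae background derived from the inner cell mass. WT was the unedited line, and Mut18 was the line labelled H3.3K27R #18, a single clone in which CRISPR-Cas9 editing had changed both genes that encode the histone variant H3.3, H3f3a and H3f3b. Each line had 2 ATAC-seq libraries and 2 mRNA-seq libraries, a second clone, Mut43, had the same, and cells had been taken off feeder cells before harvest. With 1 clone, the edit and any other feature of that clone cannot be told apart.

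ATAC-seq reads the chromatin that a transposase can reach, mostly promoters, enhancers and other sites from which nucleosomes have been displaced. H3.3 is the replacement histone that cells place at such sites throughout the cell cycle. Acetylation of its lysine 27 marks active enhancers and promoters, and a change of that lysine to arginine leaves a residue that cannot be acetylated. In ESCs, open enhancers are bound by pluripotency factors of the POU, SOX, KLF and ESRR families, and TEAD and AP-1 factors read growth and adhesion signals in many cell types.

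The sequences that the comparison turned on are printed first, from the GRCm38.p6 assembly, the same build as mm10. The regions fell in part into families that shared sequence, found from the 200 bp around each summit without reference to line (a step added after the data had been seen). Each family is shown by the member, among those held by all 4 lists, that held most of its shared stretches, with the family's most frequent 20-base word in capitals. Families 2 and 3 are shown because more of their copies were WT-only, families 7 and 8 because more were Mut18-only, and family 1 as the most abundant one.
family 1 (chr1:143862208-143862407, plus strand): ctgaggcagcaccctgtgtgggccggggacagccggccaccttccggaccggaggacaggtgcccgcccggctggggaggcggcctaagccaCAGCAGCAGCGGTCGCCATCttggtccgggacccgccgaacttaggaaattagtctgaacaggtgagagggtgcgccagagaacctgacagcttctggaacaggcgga
family 2 (chr1:44375035-44375234, minus strand): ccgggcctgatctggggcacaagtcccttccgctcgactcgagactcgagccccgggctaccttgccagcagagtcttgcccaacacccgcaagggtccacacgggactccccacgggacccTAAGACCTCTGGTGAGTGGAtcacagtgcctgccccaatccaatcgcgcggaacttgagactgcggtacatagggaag
family 3 (chr1:16953469-16953668, minus strand): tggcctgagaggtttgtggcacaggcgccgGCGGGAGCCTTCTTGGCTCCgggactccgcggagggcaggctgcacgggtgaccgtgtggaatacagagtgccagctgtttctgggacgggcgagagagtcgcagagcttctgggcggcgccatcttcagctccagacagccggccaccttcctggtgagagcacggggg
family 7 (chr2:121436503-121436702, minus strand): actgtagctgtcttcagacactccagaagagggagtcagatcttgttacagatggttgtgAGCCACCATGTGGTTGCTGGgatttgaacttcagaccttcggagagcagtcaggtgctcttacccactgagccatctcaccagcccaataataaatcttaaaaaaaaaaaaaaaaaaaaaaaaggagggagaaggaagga
family 8 (chr8:25198641-25198840, plus strand): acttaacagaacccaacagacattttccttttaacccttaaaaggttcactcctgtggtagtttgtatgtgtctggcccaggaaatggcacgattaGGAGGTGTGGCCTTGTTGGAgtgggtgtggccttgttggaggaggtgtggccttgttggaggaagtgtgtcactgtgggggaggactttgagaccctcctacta

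Single regions are shown by the 100 bp around their summits, with any of the 12 searched motifs in capitals. Here and below, intron and exon refer to any annotated gene at the summit. The gene named is the one with the nearest protein-coding transcription start, which need not hold the region. This also applies where a region is written as an intron of that gene. For the region named by Kazn, that start lay 387506 bp away. The first pair are among the 5 strongest WT-only regions and carry the TEAD word ACATTCC or its reverse complement, the next 3 are among the 5 strongest Mut18-only regions, and the last pair were called lower and higher in Mut18.
WT-only, intron of 3110009E18Rik (chr1:120204990-120205089, plus strand): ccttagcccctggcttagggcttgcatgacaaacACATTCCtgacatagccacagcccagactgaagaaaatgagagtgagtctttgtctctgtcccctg
WT-only, exon near Tal2 (chr4:53762658-53762757, plus strand): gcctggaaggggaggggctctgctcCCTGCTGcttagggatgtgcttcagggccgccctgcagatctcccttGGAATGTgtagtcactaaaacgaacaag
Mut18-only, near Lpgat1 (chr1:191712491-191712590, plus strand): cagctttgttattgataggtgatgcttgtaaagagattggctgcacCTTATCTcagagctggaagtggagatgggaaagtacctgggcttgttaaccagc
Mut18-only, intron of Gm3604 (chr13:62408590-62408689, plus strand): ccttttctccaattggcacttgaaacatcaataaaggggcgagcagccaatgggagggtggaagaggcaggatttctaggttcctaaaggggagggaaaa
Mut18-only, near Klf11 (chr12:24644292-24644391, plus strand): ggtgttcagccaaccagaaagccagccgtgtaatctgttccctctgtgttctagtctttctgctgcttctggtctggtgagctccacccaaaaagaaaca
lower in Mut18, near Plch1 (chr3:63668902-63669001, plus strand): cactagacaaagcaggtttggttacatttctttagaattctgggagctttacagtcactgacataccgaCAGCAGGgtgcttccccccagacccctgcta
higher in Mut18, intron of Kazn (chr4:142626985-142627084, plus strand): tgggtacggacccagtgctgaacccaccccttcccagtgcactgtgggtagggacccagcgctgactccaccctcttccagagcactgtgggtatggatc

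The 4 lists held 76114 and 65252 autosomal peaks in WT and 61745 and 67790 in Mut18, so the first WT list was the longest. The deposited lists carried no read numbers. Their fold enrichments lay in part on whole multiples of a step (19.6% to 24.3% of peaks within 0.0005), and if MACS2 added 1 to pileup and background, those steps corresponded to a background coverage of 3.36 and 2.06 reads in WT and 2.01 and 2.27 in Mut18. By that measure the first WT library was the deepest, and a region absent from a list is one that did not reach that list's threshold, a -log10 q of about 6, not one shown to be closed. The median fold enrichment was 6.80 and 7.75 in WT and 7.63 and 7.45 in Mut18. Of 12 core pluripotency genes, 12, 11, 11 and 11 had a promoter peak (within 1 kb of a TSS) in the 2 WT and the 2 Mut18 lists. Some lists of other lineages had promoter peaks about as often, such as trophoblast genes with 9 of 10 in every list. Such counts therefore do not by themselves mark the cell type. Other lists had fewer: 10, 10, 9 and 8 of 15 fibroblast markers, and 0 of 9 annotated 2-cell-like genes in every list. The mRNA of Pou5f1, a defining ESC factor, was at 12090 and 12810 normalized counts in WT and 10620 and 10010 in Mut18.

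**Figure D1:**
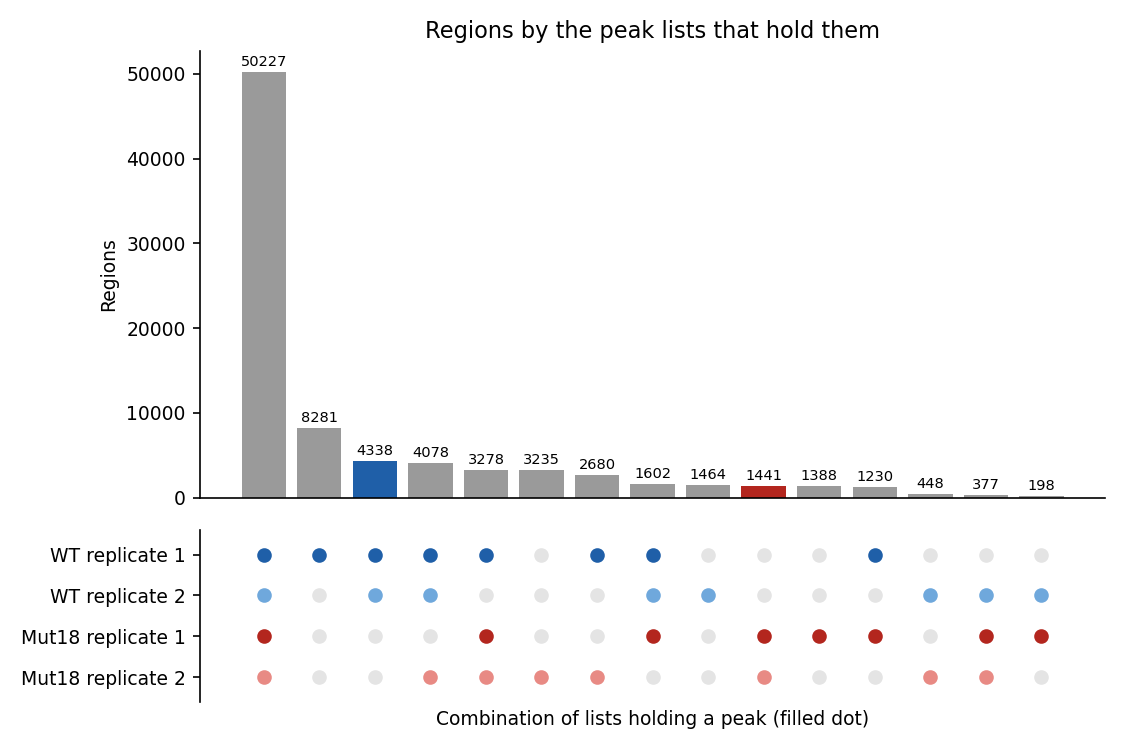
Number of regions (vertical axis) for each combination of the 4 peak lists, marked by filled dots below (WT replicates in blue, Mut18 replicates in red). The 4338 WT-only regions are the blue bar, the 1441 Mut18-only regions the red bar, and 8281 regions were held by the first WT list alone.

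Regions held by all 4 lists made up 59.6% of the 84265, those held by 3 lists 11.1%, by 2 lists 12.3% and by 1 list 17.1%. Of the 60245 regions held by both WT lists, 83.4% were held by both Mut18 lists and 7.20% by neither. Of the 55323 regions held by both Mut18 lists, 90.8% were held by both WT lists and 2.605% by neither. As shares of all regions, 5.15% were WT-only and 1.71% Mut18-only. In covered bases, the WT lists shared 72.2% of the first and 94.6% of the second, and the Mut18 lists 88.4% of the first and 78.8% of the second. The Jaccard index was 0.693 between the WT lists, 0.714 between the Mut18 lists and 0.614 to 0.687 across the lines.

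The excess of WT-only over Mut18-only regions was smaller with lists of equal length. When each list was limited to its 61745 strongest peaks by -log10 q, there were 2896 WT-only and 2461 Mut18-only regions, and 86.5% of WT regions were kept in both Mut18 libraries. Without WT replicate 1, 6350 regions were held by the remaining WT list alone and 4808 by both Mut18 lists alone. Without WT replicate 2, these numbers were 12686 and 1819. Without Mut18 replicate 1 they were 5951 and 4702, and without Mut18 replicate 2 they were 8432 and 2857. With a library left out, its line was judged by a single list, a looser rule that by itself raises line-only counts.

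Strong regions were kept. When the WT regions were ordered by their mean percentile of fold enrichment in the WT lists and cut into 4 groups of near equal size, 98.4% of the strongest group held a peak in both Mut18 libraries and 0.458% (69 of 15061) in neither. In the weakest group these shares were 70.7% and 12.6%. In the other direction, 99.5% of the strongest group of Mut18 regions were held by both WT lists, and 11 of 13831 by neither. WT regions within 1 kb of a TSS of a protein-coding gene were kept in both Mut18 libraries in 90.9% of cases and distal ones in 80.8%. For Mut18 regions looked up in WT, these shares were 97.6% and 88.4%.

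The line-only regions were weak and narrow beside those held by all 4 lists, as were other regions held by 2 lists. WT-only regions had a median percentile of 35.8 and 31.3 within the WT lists, and Mut18-only regions one of 31.3 and 32.6 within the Mut18 lists. Of the WT-only regions, 668 lay above the 50th percentile of both lists and 2 above the 90th percentile of both. Of the Mut18-only regions, these numbers were 161 and 1. The median width was 240 bp for WT-only and 196 bp for Mut18-only regions, against 496 bp for those held by all 4 lists. Percentiles are ranks of fold enrichment within 1 list, on a scale to 100.

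The strongest WT-only regions were copies of family 2 in an intron of Itgbl1 (chr14:123740150-123740736, fold enrichment 13.1 and 12.8 in the 2 WT libraries) and near Calcr (chr6:3646676-3647301, 13.1 and 12.1). Next came an intergenic region near Zpld1 (chr16:55378700-55379110), with 10.6 and 14.4. The intron of 3110009E18Rik (chr1:120204885-120205204) had 12.4 and 11.7, and an exon near Tal2 (chr4:53762594-53762819) had 12.4 and 11.5. None of these 5 held a peak in either Mut18 list. The strongest Mut18-only region lay near Lpgat1 (chr1:191712420-191712642), with 12.3 and 14.1 in the Mut18 libraries. An intron of Rad51b (chr12:79330654-79330874) had 11.95 and 9.79, and an intron of Gm3604 (chr13:62408536-62408764) had 9.62 and 12.2. A region near Klf11 (chr12:24644219-24644461) had 9.96 and 11.3. Rad51b acts in recombination repair, and Klf11 is a zinc-finger repressor.

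Within 1 kb of a TSS, the strongest WT-only regions were those of Spink1 (chr18:43737125-43737730, 11 and 9.78), Btla (chr16:45224067-45224358, 8.95 and 9.82) and Abcc12 (chr8:86567453-86567681, 8.03 and 10.5). The last of these was a copy of family 3. The strongest Mut18-only ones were those of Klhdc10 (chr6:30416887-30417161, 8.79 and 10.3), Sh3d19 (chr3:86069717-86069993, 8.30 and 9.79) and Gstz1 (chr12:87157466-87157693, 8.35 and 8.71). These are single regions near a TSS, and a gene can have other promoter regions with a peak.

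The sequence under the summits differed between the classes. Each motif was searched as a fixed word on both strands of the 200 bp around the summit. The TEAD word ACATTCC was present in 7.95% of WT-only regions (95% exact binomial interval 7.16 to 8.80), in 3.32% of regions held by all 4 lists, in 1.87% of Mut18-only regions (1.24 to 2.71) and in 3.78% of all regions. The AP-1 word TGANTCA was present in 10.1% of WT-only (9.22 to 11), 6.04% of shared and 6.59% of Mut18-only regions (5.37 to 8.00), and in 6.90% of all. The ZIC word CAGCAGG was present in 16.3%, 13.6% and 9.58% of these classes and in 13.8% of all regions. These 3 words were most frequent in WT-only regions. The intervals cover counting error only, and regions are not replicates of a line.

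In the Mut18-only regions the order was the other way round for the words of naive pluripotency factors. The KLF word GGGTGTGG was present in 7.50% of Mut18-only regions (6.19 to 8.98), 3.84% of shared and 2.70% of WT-only regions (2.24 to 3.22), and in 4.05% of all regions. The ESRRB word CAAGGTCA was present in 2.91% (2.11 to 3.92), 1.79% and 1.27% (0.957 to 1.65) of these classes, and in 1.87% of all. The POU octamer ATGCAAAT was present in 2.43% of Mut18-only, 2.54% of shared and 2.58% of WT-only regions and 2.601% of all. The SOX word CATTGTT was present in 3.89%, 2.66% and 3.50% of these classes (2.88% of all) and the GATA word AGATAAG in 1.87%, 1.26% and 1.73% (1.46% of all).

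Over all regions of a class, words of promoter factors were rarer in both line-only classes than in shared regions. The ETS word CCGGAAG was present in 7.64% of shared, 2.35% of WT-only and 3.19% of Mut18-only regions (5.53% of all), and the NRF1 word GCGCATGCG in 0.822%, 0.323% and 0.208% (0.584% of all). The YY1 word AAGATGGCG was present in 4.79% of shared, 2.77% of WT-only and 0.208% of Mut18-only regions (3 of 1441), and in 3.48% of all. The CTCF core word CAGGGGGC was present in 3.71%, 2.70% and 2.78% of these classes and in 3.42% of all. Only 5.83% of Mut18-only regions lay within 1 kb of a TSS, against 13.5% of WT-only and 28.0% of shared regions, so the shares were also taken over distal regions outside repeats. There the ETS word was present in 3.11% of shared, 1.75% of WT-only and 4.17% of Mut18-only regions, so that its order turned for Mut18-only regions, and the NRF1 word in 0.279%, 0.298% and 0.194%.

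Among the 50514 distal regions whose 200 bp were less than 50% soft-masked as repeats, the TEAD word was present in 10.1% of 2687 WT-only, 4.09% of shared and 1.94% of 1032 Mut18-only regions. There the AP-1 word was present in 13.1%, 7.95% and 6.78%, and the KLF word in 3.46%, 4.63% and 6.59%. With lists of equal length, the TEAD word was present in 8.32% of WT-only and 2.40% of Mut18-only regions, and the KLF word in 2.35% and 7.19%. Both settings were chosen after the data had been seen. Regions held by the first WT list alone had the TEAD word in 5.39% and the AP-1 word in 8.79%, and those of the second WT list alone in 5.67% and 10.1%, so that either WT library showed these words above the 2.67% and 2.38% (TEAD) and 6.63% and 7.26% (AP-1) of regions held by a single Mut18 list.

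**Figure D2:**
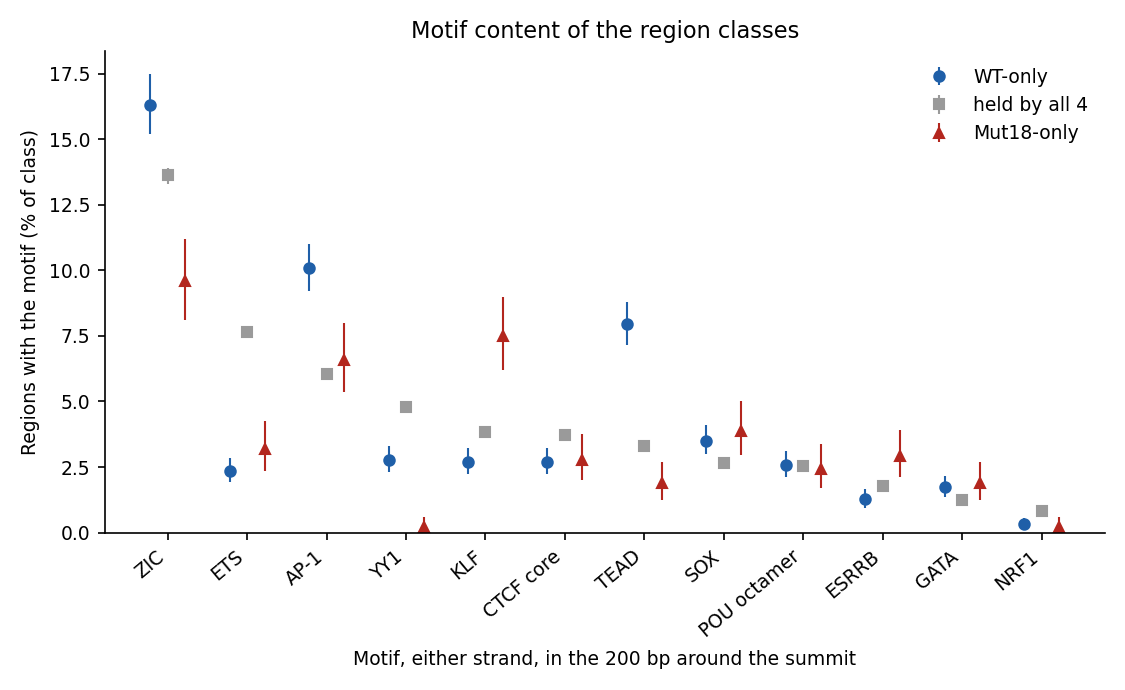
Share of regions (vertical axis, percent of the class) with each of 12 motif words within the 200 bp around the summit, for WT-only (blue circles, n = 4338), shared (grey squares, n = 50227) and Mut18-only regions (red triangles, n = 1441), with 95% exact binomial intervals. TEAD stands at 7.95% in WT-only against 1.87% in Mut18-only regions, and KLF at 2.70% against 7.50%.

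The mRNA of the factors that read these words was looked up after the motif shares had been seen, in the fit of edgeR's quasi-likelihood test across 14061 genes with Benjamini-Hochberg adjustment. Counts are normalized counts per library, and errors of log2 fold changes are approximate standard errors. Tead3 stood at 195 and 210 in WT and 98.1 and 77.9 in Mut18 (log2 fold change -1.20 ± 0.20, edgeR adjusted p = 8.4e-08). Tead2 stood at 1800 and 1947 in WT and 1255 and 1197 in Mut18 (-0.61 ± 0.09, edgeR adjusted p = 5.74e-10), and Tead1 at 2567 and 2566 against 2104 and 2065 (-0.30 ± 0.06, edgeR adjusted p = 8.29e-06). Tead4 went the other way, with 88.8 and 114 in WT and 156 and 139 in Mut18 (0.54 ± 0.16, edgeR adjusted p = 0.00316). Tead1, Tead2 and Tead3 were thus lower in Mut18. Jun, an AP-1 subunit, stood at 366 and 260 in WT and 147 and 166 in Mut18 (-0.999 ± 0.18, edgeR adjusted p = 5.45e-07). Fos stood at 210 in the first WT library, 32.3 in the second and 36.0 and 34.4 in Mut18, so that only the first WT library stood apart.

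Klf2 stood at 1969 and 2173 in WT and 3268 and 3259 in Mut18 (0.66 ± 0.10, edgeR adjusted p = 3.11e-10), and Esrrb at 3901 and 3944 against 5127 and 5083 (0.38 ± 0.06, edgeR adjusted p = 5.44e-08). Klf4 stood at 801 and 824 in WT and 939 and 1066 in Mut18 (0.30 ± 0.08, edgeR adjusted p = 0.000452). Klf5 stood at 1009 and 1041 in WT and 1058 and 1055 in Mut18 (edgeR adjusted p = 0.554). Klf2, Klf4 and Esrrb were higher in both Mut18 libraries than in either WT library. These differences were under 2-fold except those of Tead3 and Fos. The p-values measure only the spread between libraries of a line, which may be technical.

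TEAD and AP-1 words are also common in open chromatin of fibroblasts, the cells used as feeders, so fibroblast markers were listed. Of 14 such genes tested for mRNA, 5 were lower in Mut18 beyond 2-fold and none was higher, against 4.74% and 2.79% of all genes. Their summed normalized counts were 21550 and 19640 in WT and 18500 and 18370 in Mut18. Col3a1 stood at 843 in the first WT library, 257 in the second and 135 and 149 in Mut18, Col6a1 at 428, 57.8, 34.0 and 25.3, and Postn at 288, 111, 38.1 and 52.6. These 3 were highest in the first WT library. Others were not: S100a4 stood at 125, 145, 48.1 and 26.3, Twist1 at 85.9, 104, 62.1 and 40.5, and Fn1 at 10920, 11060, 11550 and 11710. In the ATAC-seq lists, 10 and 10 of 15 fibroblast markers had a promoter peak in WT and 9 and 8 in Mut18, and Col3a1, Col6a1, Postn, Dcn and Lum had none in any list. The part of such cells in the motif shares was not tested.

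The classes also differed in repeated sequence. Repeat windows (at least 50% soft-masked) made up 24.9% of WT-only, 23.2% of Mut18-only and 18.7% of shared regions. No repeat annotation was used, so the families go by number, copies of a family are not independent, and how reads that fit several copies were placed is not given in the sources used here.

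Family 2 (2397 regions) held a peak in 98.1% and 88.7% of its copies in the 2 WT lists and in 70.7% and 73.6% in the 2 Mut18 lists. Over all regions these shares were 89.9%, 74.5%, 70.9% and 78.0%. Of its copies, 294 (12.3%) were WT-only and 0 were Mut18-only, against 5.15% and 1.71% of all regions. Family 3 (463 regions) held a peak in 98.5% and 87.0% of its copies in WT and in 63.5% and 65.4% in Mut18, and 81 (17.5%) were WT-only and 0 Mut18-only. Both WT lists thus lay above both Mut18 lists in these families.

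With lists of equal length, family 2 held a peak in 89.1% and 85.7% of copies in WT and 70.7% and 68.5% in Mut18, and family 3 in 87.0% and 81.9% against 63.5% and 61.1%. Over all regions, the shares at equal length were 73.1% and 70.8% in WT and 70.9% and 71.6% in Mut18. Then 244 copies of family 2 were WT-only and 1 was Mut18-only, and 61 and 0 of family 3. In the lists of the second clone, Mut43, which were not used to define regions or families, 75.01% and 69.8% of family 2 copies and 66.3% and 61.1% of family 3 copies held a peak. Over all regions the Mut43 shares were 74.0% and 70.9%, so family 2 lay near them and family 3 below. In the copies held by all 4 lists, the median fold enrichment of family 2 was 10.1 and 10.3 in WT and 8.96 and 9.18 in Mut18, and that of family 3 was 10.3 and 10.6 against 9.29 and 9.49. Over all shared regions these medians were 7.80, 8.40, 8.14 and 8.20.

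Family 1, the most abundant with 2966 regions, held a peak in 98.7% and 94.1% of copies in WT and 87.9% and 90.2% in Mut18. Of its copies, 97 (3.27%) were WT-only and 1 (0.0337%) Mut18-only, both below the 5.15% and 1.71% of all regions. The YY1 word was present in 70.3% of family 1 and 76.9% of family 3 but in 0% of family 2, and in 3.48% of all regions. Families 7, 8 and 11 were the reverse of families 2 and 3 in their counts: 11, 8 and 15 of their copies were WT-only and 39, 26 and 22 Mut18-only, of 534, 420 and 372. Their Mut18-only shares were 7.30%, 6.19% and 5.91%, and their WT-only shares 2.06%, 1.905% and 4.03%. Family 8 held the KLF word in 27.9% of copies. Family 4, of which 98.3% held the POU octamer, had 17 WT-only (4.22%) and 5 Mut18-only (1.24%) copies of 403. Family 12, with the octamer in 89.4% and the TEAD word in 76.6%, had 9 (4.79%) and 3 (1.60%) of 188. Both families lay near the shares of all regions. Families 1 to 3 together held 472 WT-only regions and 1 Mut18-only region of 5826, and outside all 12 families there were 3739 and 1318 of 75130.

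**Figure D3:**
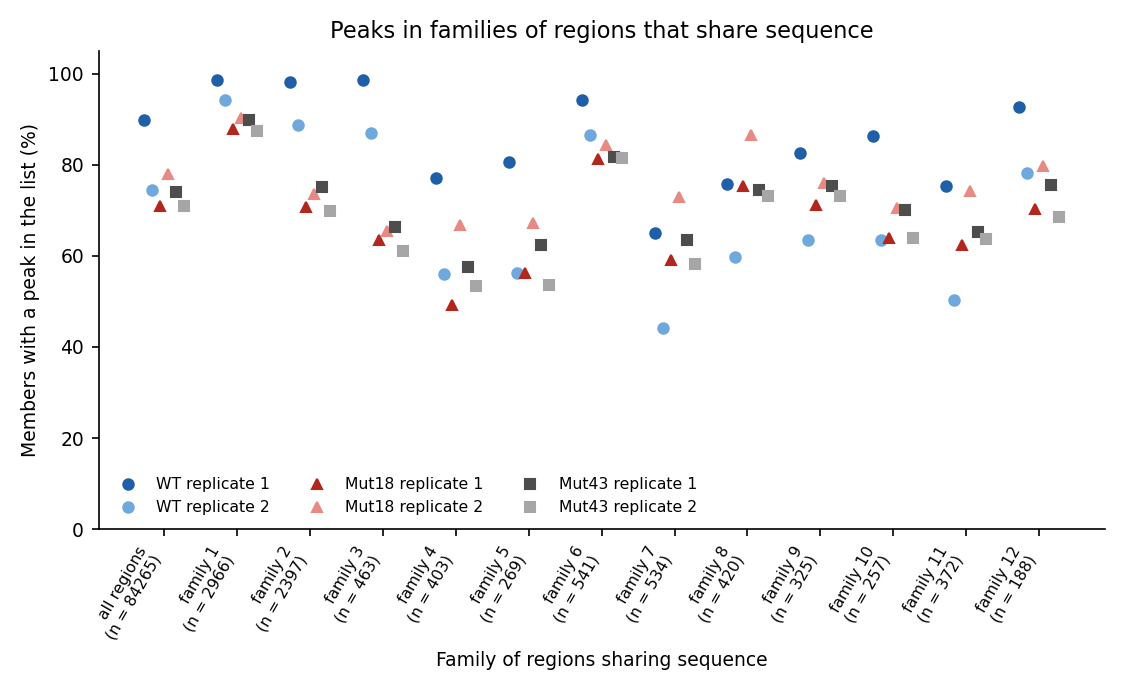
Share of the members of each family of sequence-sharing regions (vertical axis, percent) with a peak in each list, with all regions at the left. WT replicates are blue circles, Mut18 replicates red triangles and Mut43 replicates grey squares. In families 2 and 3 both WT lists lie above all 4 mutant lists.

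In the 50227 regions held by all 4 lists, the fold enrichments were ranked within each list, the ranks turned into normal scores (1 unit is 1 SD of these regions) and Mut18 compared with WT by limma with Benjamini-Hochberg adjustment. Of these regions, 32 were called higher in Mut18 (0.0637%) and 109 lower (0.217%) at an adjusted p below 0.05. At an unadjusted p below 0.05 there were 2828 and 3427. The last region called had an adjusted p of 0.0497 and the next one 0.0502. After quantile normalization, the log2 ratio of Mut18 to WT lay within 0.5 of 0 for 98.7% of regions and ranged from -1.07 to 0.92, and 3 regions changed by 2-fold or more. Spearman's rank correlation of fold enrichment across these regions was 0.915 between the WT lists, 0.903 between the Mut18 lists and 0.865 to 0.883 across the lines.

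The calls depended on how ranks were taken and on single libraries. When ranks were taken among all peaks of a list, 1 region was higher and 8 lower, and within each chromosome limma called 0 in either direction, with 2723 and 3276 at an unadjusted p below 0.05. Without WT replicate 1, 2 regions were higher and 3 lower, and without WT replicate 2, 2 and 15. Without Mut18 replicate 1 there were 73 and 163, and without Mut18 replicate 2, 141 and 415.

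The region with the lowest p among those lower in Mut18 lay near Prl4a1, a placental prolactin-family gene (chr13:27960403-27960928). Its fold enrichment was 11.2 and 13.1 in WT and 5.97 and 5.82 in Mut18 (score difference -2.25 ± 0.26 SE, limma adjusted p = 0.0177), and it belonged to family 6. A region near Plch1, a phospholipase C (chr3:63668804-63669197), had 11.9 and 14.0 in WT and 6.64 and 6.12 in Mut18 (-2.27 ± 0.27, limma adjusted p = 0.0177). The fold enrichment in an intron of Gpc6, a glypican (chr14:117267752-117268438), was 17.7 and 16.1 in WT and 9.29 and 9.49 in Mut18. A repeat in an intron of Defb39, a defensin gene (chr8:19059828-19060499), had 10.1 and 12.7 against 5.97 and 5.51, and chr7:53136525-53136889 had 14.0 and 14.7 against 8.30 and 7.96. Over these 5 regions, which were chosen for the lowest p, limma's adjusted p was 0.0177 to 0.0207.

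The region with the lowest p among those higher in Mut18 lay near Gm14408 (chr2:176871330-176871823), with a fold enrichment of 8.49 and 10.2 in WT and 16.03 and 17.0 in Mut18 (score difference 1.97 ± 0.26 SE, limma adjusted p = 0.0207). An intronic region whose nearest TSS was that of Kazn, 387506 bp away (chr4:142626907-142627179), had 10.3 and 10.2 in WT and 16.3 and 17.8 in Mut18 (1.76 ± 0.25, limma adjusted p = 0.0207). Introns of Sult4a1 (chr15:84097620-84097894) and Sult6b1 (chr17:78895045-78895608), both sulfotransferase genes, had 8.03 and 7.86 against 13.4 and 15.3, and 5.74 and 6.22 against 10.5 and 10.5. An intron of Rerg, a Ras-like GTPase (chr6:137146940-137147320), had 6.16 and 5.55 against 10.4 and 10.1. Over these 5 regions, chosen in the same way, limma's adjusted p was 0.0207 to 0.0344.

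**Figure D4:**
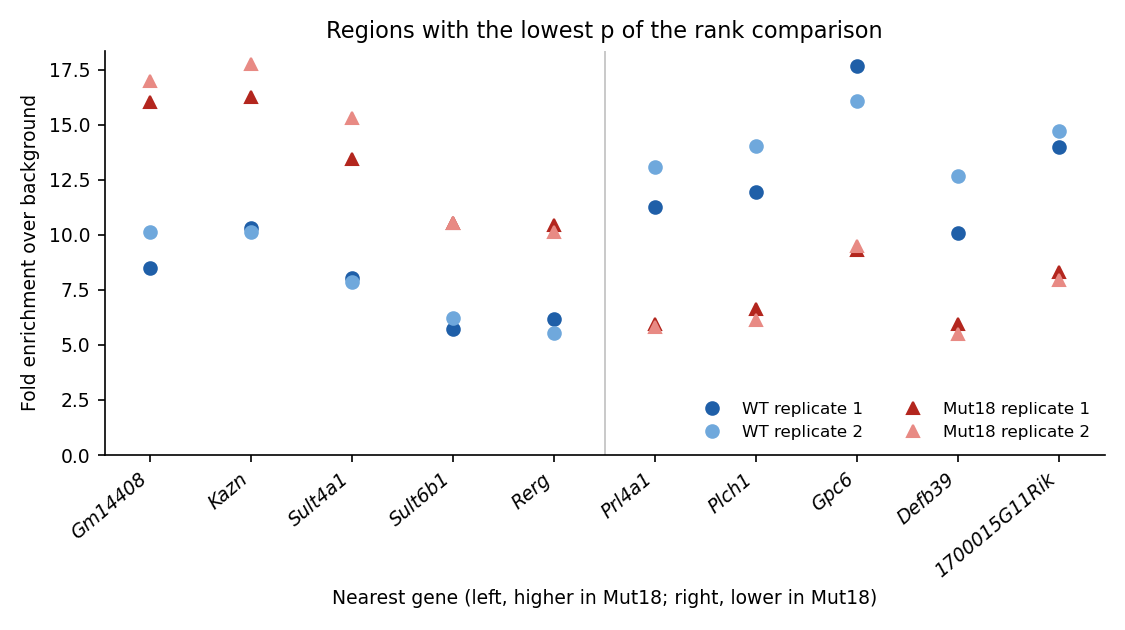
Fold enrichment over background (vertical axis) in each library for the 5 regions higher (left) and the 5 lower (right) in Mut18 with the lowest p, named by the nearest gene. WT replicates are blue circles and Mut18 replicates red triangles, and the separation of the pairs follows from choosing regions by lowest p.

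The 109 lower regions were mostly distal repeats: 58.7% were repeat windows, against 18.7% of the shared regions, and 3.67% lay within 1 kb of a TSS, against 28.0%. Of the 109, 20 were copies of family 2, 13 of family 3, and 6 each of families 1 and 6, and 64 lay outside all families. Of all 50227 shared regions, 1602 were copies of family 2, 279 of family 3, 2523 of family 1 and 401 of family 6. None of the 32 higher regions was in families 1 to 3. With these families a small part of the shared regions, few such copies would be among 32 in any case, so this absence shows little. At an unadjusted p below 0.05, family 2 had 429 lower and 5 higher of 1602 shared copies, and family 3 had 87 and 1 of 279, while all regions had 3427 and 2828. Over shared copies the median score difference was -0.28 for family 2, -0.22 for family 3 and -0.09 for family 1, and 0.12 to 0.14 for families 7, 8 and 11, against 0.02 over all shared regions. The score did not follow the line-only counts in each family: family 10 had the highest median (0.16) with 14 WT-only (5.45%) and 5 Mut18-only (1.95%) copies. Family 4 had 0.11 with 17 (4.22%) and 5 (1.24%).

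Promoters were compared over libraries. Of 20722 protein-coding genes, 14520 (70.1%) and 14118 (68.1%) had a peak within 1 kb of a TSS in WT and 13715 (66.2%) and 14033 (67.7%) in Mut18. The Mut18 mean was 2.15 percentage points lower, and the lines did not overlap (exact permutation test, two-sided, p = 0.333, the smallest that 2 against 2 libraries allow). The difference was -1.18 without WT replicate 1, -1.38 without Mut18 replicate 1 and -1.3 with lists of equal length. The share of peaks within 1 kb of a TSS was 22.8% and 25.8% in WT and 25.8% and 24.6% in Mut18, which overlapped (exact permutation test, two-sided, p = 1.000). Without WT replicate 1 that difference turned from 0.889 to -0.645 percentage points, and with lists of equal length it was 0.00405.

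The regions at the pluripotency genes were in part held by all 4 lists and in part not. All 4 regions within 10 kb of Pou5f1 and all 3 of Sox2 held peaks in all 4 lists. No tested region of the 14 named genes passed limma's threshold. Only regions held by all 4 lists could be tested, which were 0 at Meg3 and 0 at Dlk1. At the Nanog promoter (chr6:122707158-122707595) the fold enrichment was 3.75 and 3.58 in WT and 4.55 and 4.64 in Mut18 (score difference 0.56, limma adjusted p = 0.291). A Mut18-only region lay beyond the 3′ end of Nanog (chr6:122720076-122720246), with 5.50 and 6.09 in Mut18, and both Mut43 lists also held it. Of 16 regions within 10 kb of Esrrb, 9 were held by all 4 lists, 2 were WT-only and 1 was Mut18-only. Of 3 regions at Klf4, 1 was held by all 4 lists. The one at its TSS (chr4:55532472-55532821) had 4.38 and 3.42 in WT, 3.85 in the second Mut18 library and no peak in the first Mut18 list or in either Mut43 list. Within 10 kb of the core pluripotency genes 47 of 57 regions were held by all 4 lists, and within 10 kb of the naive ones 37 of 53. The naive pluripotency list had a promoter peak at 10 of 11 annotated genes in every list, and 1 of 11 genes tested for mRNA was higher beyond 2-fold (2.79% of all genes were), Prdm14, a repressor that guards naive pluripotency (137 and 158 in WT, 355 and 348 in Mut18, log2 fold change 1.26 ± 0.18, edgeR adjusted p = 1.45e-10).

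At Lefty1, a secreted Nodal inhibitor, 3 of 6 regions were WT-only. The promoter region (chr1:180934592-180934919) had a fold enrichment of 3.53 and 3.36 in WT and no peak in Mut18, and regions at chr1:180936787-180936998 and chr1:180942451-180942786 had 3.54 and 4.07, and 3.35 and 3.97, the last of them at a TSS of the neighbouring Tmem63a. All 3 were near the bottom of the WT lists in rank. The promoter region held a peak in 1 of the Mut43 lists, and the others in neither. Lefty1 mRNA stood at 2282 and 2484 in WT and 2910 and 2899 in Mut18 (0.29 ± 0.06, edgeR adjusted p = 2.41e-05), higher in both Mut18 libraries. At the neighbouring Lefty2, 4 of 5 regions were held by all 4 lists and none passed the threshold (score differences -0.36 to -0.01, lowest limma adjusted p = 0.575), while its mRNA stood at 2285 and 2407 in WT and 6744 and 6814 in Mut18 (1.53 ± 0.16, edgeR adjusted p = 2.65e-19). Fam25c was alike, with 3 of 5 regions in all 4 lists, score differences of -0.38 to 0.05, and mRNA of 146 and 174 in WT against 494 and 524 in Mut18 (1.66 ± 0.22, edgeR adjusted p = 1.75e-12).

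Imprinted genes with a WT-only region included some whose mRNA was lower in Mut18 and others whose mRNA was not. Meg3 and Rian are maternally expressed non-coding RNAs of 1 cluster on chromosome 12. Of 3 regions at Meg3, 2 were WT-only: chr12:109539110-109539374 upstream of the gene, with a fold enrichment of 5.08 and 4.88, and chr12:109542845-109543124, with 3.61 and 4.84. The upstream region was also absent from both Mut43 lists, and the other WT-only region held a peak in 1 of them. Meg3 mRNA stood at 3048 and 3025 in WT and 182 and 155 in Mut18 (-4.17 ± 0.37, edgeR adjusted p = 3.93e-25). Upstream of Rian, a region at chr12:109594754-109595324 was WT-only, with 6.24 and 7.69, and 2 of 4 regions were held by all 4 lists. Rian mRNA stood at 5861 and 5634 in WT and 307 and 340 in Mut18 (-4.15 ± 0.36, edgeR adjusted p = 1.26e-26). The paternally expressed Dlk1 of the same cluster had 1 WT-only region near its start (chr12:109453136-109453299, 4.21 and 4.01), and its mRNA stood at 149 and 130 against 90.1 and 81.9 (-0.70 ± 0.18, edgeR adjusted p = 0.000487).

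Grb10, an adaptor that dampens insulin and IGF receptor signalling, had 9 regions, of which 6 were held by all 4 lists and 1 was WT-only. The WT-only region (chr11:12037260-12037591), at a TSS, had a fold enrichment of 4.19 and 5.01 in WT and no peak in either Mut18 or Mut43 list. The region at another TSS (chr11:12025596-12026299) had 8.65 and 8.50 in WT and 6.91 and 7.67 in Mut18 (score difference -0.51, limma adjusted p = 0.452). Grb10 mRNA stood at 4163 and 4065 in WT and 290 and 286 in Mut18 (-3.83 ± 0.34, edgeR adjusted p = 4.37e-26). Within 10 kb of the 32 annotated genes of the imprinted list, 10 of 123 regions were WT-only (8.13%, against 5.15% of all regions) and 1 was Mut18-only (0.813%, against 1.71%). Of 29 imprinted genes tested for mRNA, 10 were lower beyond 2-fold and 1 was higher, against 4.74% and 2.79% of all genes. Gnas also had a WT-only region and lower mRNA. Ddc, next to Grb10, had a WT-only region and higher mRNA (289 and 293 in WT, 587 and 597 in Mut18, 1.02 ± 0.15, edgeR adjusted p = 1.39e-10), and Usp29, Sgce, Dlk1 and Kcnq1ot1 had a WT-only region with mRNA that was not called. H19, Ndn, Magel2, Mirg, Nnat and Dio3 were lower with no WT-only region. This list was chosen with results of these libraries known.

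H3f3a and H3f3b had 2 and 4 regions within 10 kb, all held by all 4 lists. At the H3f3a promoter (chr1:180813165-180814457) the fold enrichment was 6.05 and 7.33 in WT and 6.11 and 6.10 in Mut18, and at the region of H3f3b (chr11:116023845-116024813) 5.59 and 7.06 against 6.39 and 5.87. The values of the lines overlapped at both. At a distal region near H3f3b (chr11:116017958-116018484) they did not, with 6.31 and 6.45 in WT and 5.32 and 4.87 in Mut18 (score difference -0.68, limma adjusted p = 0.214). H3f3a mRNA stood at 10510 and 10940 in WT and 9560 and 9160 in Mut18 (-0.20 ± 0.05, edgeR adjusted p = 0.00133) and H3f3b mRNA at 12380 and 12400 against 11650 and 12030 (-0.07 ± 0.04, edgeR adjusted p = 0.21). Within 10 kb of the genes of H3.3 and its chaperones, 30 of 42 regions were held by all 4 lists and 0 were line-only.

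Lists of other lineages were described by counts. Over all protein-coding genes, 70.1% and 68.1% had a promoter peak in WT and 66.2% and 67.7% in Mut18, 5.15% of regions were WT-only and 1.71% Mut18-only, and 4.74% of tested genes were lower and 2.79% higher in mRNA. Of 10 primitive endoderm genes, 9 and 9 had a promoter peak in WT and 7 and 6 in Mut18, and the promoters of Gata4 and Sox7, endoderm transcription factors, held a peak in both WT lists and neither Mut18 list. The Gata4 promoter held a peak in both Mut43 lists, and the Sox7 promoter in neither. Of 22 developmental regulators, 19 and 18 had one in WT and 14 and 16 in Mut18, and 7 of their 104 regions were WT-only against 0 Mut18-only. Of 11 annotated germline genes, 11 and 10 had one in WT and 7 and 10 in Mut18. Trophoblast genes had 9 of 10 in every list, primed and mesendoderm genes 11, 10, 11 and 10 of 12, and housekeeping genes 10 of 11 in every list. Line-only regions near housekeeping genes were 1 and 0 of 49. Of 7 tested 2-cell-like genes, 6 were lower in mRNA beyond 2-fold and 0 higher, among them Zscan4c (586 and 613 in WT, 102 and 98.1 in Mut18, log2 fold change -2.58 ± 0.29, edgeR adjusted p = 1.09e-15), and 0 of 6 regions near the 9 annotated ones were line-only. None of the 9 had a promoter peak in any list.

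The mRNA of genes next to line-only regions was compared with all genes. Of 14061 genes tested, 392 were higher (2.79%) and 666 lower (4.74%) in Mut18 at an adjusted p below 0.05 and a change over 2-fold. Of 11498 tested genes with a promoter region held by all 4 lists, 457 were lower (3.98%) and 184 higher (1.60%). Of 468 tested genes with a WT-only promoter region, 35 were lower (7.48%) and 12 higher (2.56%), with a median log2 fold change of -0.09. Both shares lay above those for promoter regions held by all 4 lists. Of 54 tested genes with a Mut18-only promoter region, 0 were lower and 8 higher (14.8%), with a median of 0.14. Over all genes the median was -0.01. Without chromosome 11 these medians were -0.11, 0.09 and -0.03. Of the 1308 tested genes nearest to a distal WT-only region within 50 kb, 94 were lower (7.19%) and 30 higher (2.29%), and of the 744 nearest to a distal Mut18-only region 17 were lower (2.28%) and 36 higher (4.84%). For genes nearest to distal regions held by all 4 lists, these shares were 4.59% and 3.13%. Of the 17 tested genes nearest to a distal region called lower, 6 were lower and 1 higher, and of the 15 nearest to one called higher, 1 was lower and 1 higher.

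Among genes with a WT-only promoter region, the largest falls after Grb10 were those of Btla, an inhibitory receptor of lymphocytes (38.1 and 24.5 in WT, 6.01 and 3.03 in Mut18, log2 fold change -2.76 ± 0.59, edgeR adjusted p = 2.69e-05), Npr3, the clearance receptor of natriuretic peptides (457 and 97.0 against 42.0 and 54.6), B3gat1 and Fabp7. Npr3 was highest in the first WT library. Genes with a WT-only promoter region whose mRNA was higher were led by Pla2g4e (17.6 and 7.84 against 73.1 and 66.8, 2.45 ± 0.42, edgeR adjusted p = 1.04e-07) and Zbp1, a sensor of Z-form nucleic acids (25.4 and 28.4 against 110 and 147), followed by Acp7, Khdc3 and Phkg1. Among genes with a Mut18-only promoter region, Myo1g, an unconventional myosin, stood at 24.4 and 33.3 in WT and 118 and 132 in Mut18 (2.11 ± 0.32, edgeR adjusted p = 1.31e-09). Arl14epl stood at 69.3 and 70.6 against 224 and 290, Zbtb32, a zinc-finger repressor, at 148 and 153 against 396 and 363, and Il17rc at 33.2 and 32.3 against 81.1 and 77.9. Osm, a cytokine of the interleukin-6 family, was near the limit of detection in WT, with 1.95 and 0 normalized counts, and had 12.01 and 11.1 in Mut18. None of the 4 and 3 tested genes with a called lower or higher promoter region passed the RNA threshold.

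Genes with most line-only regions within 50 kb were also listed, and those named here were chosen after their values were seen. Grip1, a synaptic scaffold protein, was nearest to 4 WT-only regions of 14 and stood at 140 and 131 in WT and 57.1 and 64.7 in Mut18 (log2 fold change -1.15, edgeR adjusted p = 4.88e-06). Arhgap18, a GTPase-activating protein, had 3 of 4 and stood at 158 and 142 against 63.1 and 50.6, and Bcl11b, a zinc-finger factor of T cells and neurons, had 3 of 7 and stood at 76.2 and 68.6 against 30.0 and 29.3. Rhbg, with 4 of 10, stood at 7.81 and 9.80 against 18.0 and 16.2 (edgeR adjusted p = 0.0767). On the Mut18 side, Hspa4 and Arf1, both on chromosome 11, had 3 of 4 and 3 of 8, and stood at 17690 and 17600 against 23530 and 24590, and 6225 and 6558 against 8321 and 8053. Others went the other way: Pard3, with 3 Mut18-only regions of 15, had a log2 fold change of -0.21 (edgeR adjusted p = 0.00432), and Ccl25, with 3 WT-only regions of 11, stood at 74.2 and 65.7 against 124 and 117 (0.79, edgeR adjusted p = 0.000213).

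Chromosome 11 stood apart. It held 7.40% and 7.43% of the autosomal peaks in WT and 8.54% and 8.59% in Mut18, a mean difference of 1.15 percentage points with no overlap (exact permutation test, two-sided, p = 0.333, the smallest possible here). Of its 6615 regions, 4.02% were Mut18-only and 1.86% WT-only. On the other chromosomes these shares were 1.11% to 1.90% and 4.31% to 6.76%. With lists of equal length they were 6.26% and 0.967% on chromosome 11 and 2.64% and 3.65% over the other chromosomes together. Chromosome 11 held 266 of the 1441 Mut18-only and 123 of the 4338 WT-only regions. In the regions held by all 4 lists, the median score difference was -0.05 on chromosome 11 and 0.03 on the others. The cause of these shares was not tested.

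**Figure D5:**
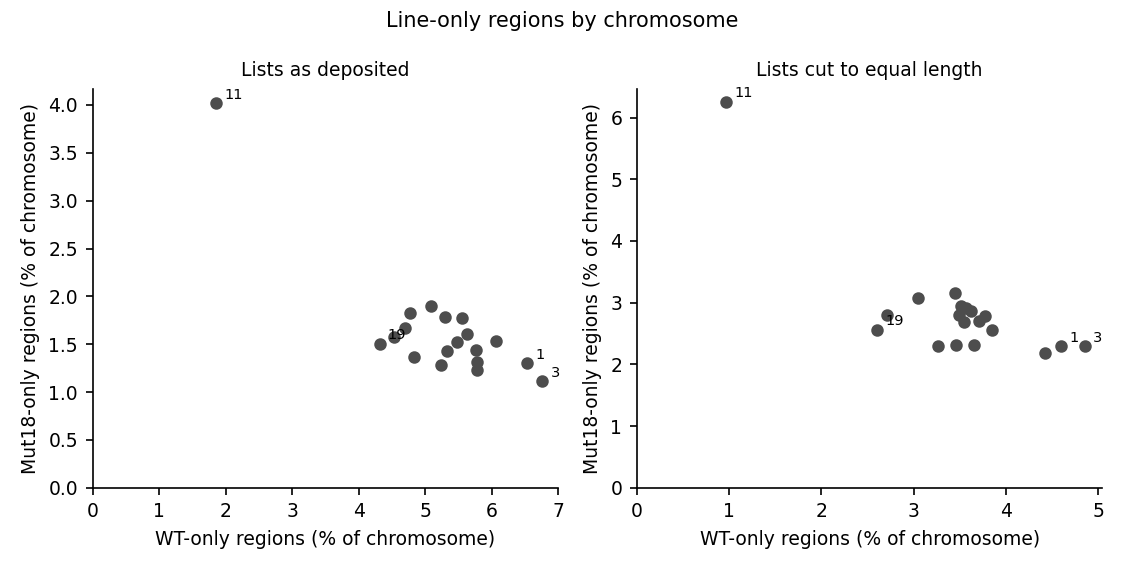
Share of Mut18-only (vertical axis, percent of the chromosome's regions) against WT-only regions (horizontal axis), 1 point a chromosome, for lists as deposited (left) and limited to equal length (right). Chromosome 11 lies at 1.86% and 4.02% on the left and at 0.967% and 6.26% on the right, apart from the other chromosomes, of which 1, 3 and 19 are labelled.

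At the scale of 1 Mb, in the 2134 bins with at least 10 regions, the median share was 5.00% WT-only and 0% Mut18-only. Bins with a high share of WT-only regions included chr6:69000001-70000000, with 6 of 15, where 8 of the 15 regions were copies of families 1 to 3 and no coding gene lay, and chr15:63000001-64000000 (4 of 11, with the Gsdmc gasdermin genes). Mut18-only regions were densest at chr11:112000001-113000000 (5 of 29, around Sox9), chr11:42000001-43000000 (2 of 14, in a cluster of GABA-A receptor genes) and chr9:47000001-48000000 (5 of 36, near Cadm1). These bins were picked for their shares and were not tested.

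The lists of Mut43, a second clone of the same edit, were looked up at the regions of the 2 classes. Of the WT-only regions, 25.1% and 21.1% held a peak in the Mut43 lists, and 64.3% in neither. Of the Mut18-only regions, 65.4% and 58.4% held one, 45.0% in both and 21.2% in neither. Of the regions held by all 4 WT and Mut18 lists these shares were 97.4% and 96.2%, and of those held by a single Mut18 list 28.0% and 23.3% (first) and 31.1% and 24.1% (second). Of those held by the first WT list alone, 14.3% and 10.6% held a peak in the Mut43 lists. Each of the Mut18-only regions named among the strongest held a peak in both Mut43 lists. Of the 8 named WT-only regions, those at Itgbl1 and Tal2 held one in both, those at 3110009E18Rik and Btla in 1, and the other 4 in neither. A comparison of Mut43 with WT would use the same WT lists, so these shares are a description.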

How the data were processed

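ATAC-seq peak lists of 2 WT and 2 Mut18 libraries were analysed, with RNA counts of the same lines. The authors aligned ATAC-seq reads with Bowtie2 (2.3.4.2) to mm10 joined with the fly genome dm6, and called peaks in each library with MACS2. The deposited peak lists give fold enrichment over background, a ratio, in column 7 and -log10 q in column 9. The deposited RNA values are raw read counts per gene (14992756 to 15143998 per library). How multi-mapping reads were treated is not given in the sources used here. Read depth of the ATAC-seq libraries is listed in the study's supplement, which was not used here.

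Peaks of chromosomes 1 to 19 were merged at 1 bp of overlap. Regions held by all 4 lists were compared by limma (3.58.1, R 4.3.3) on normal scores of ranks. RNA was compared by edgeR's quasi-likelihood test (4.0.16), with an adjusted p below 0.05 and a change over 2-fold required, and an approximate standard error was recovered from fold change and p. DESeq2 (1.42.0) was an alternative. Single values were compared by exact permutation. Genes were taken as near within 1 kb of a TSS, 10 kb of a gene body or, for distal regions, 50 kb. Regions were named by rule: the 5 strongest WT-only and Mut18-only regions and the 3 strongest at promoters, the 5 lowest p in each direction, 14 fixed loci, the 3 densest bins of 1 Mb, and the 5 largest RNA changes each way among genes with such promoters. The regions and lists were chosen with earlier results of these data known. The families, their sequences, the factor genes, the distal non-repeat subset and the motif, family and chromosome 11 shares with lists of equal length were chosen after values were seen. A few items that these rules select are not reported here.

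The fits were tested on simulated data. With 50227 regions and 100 changed per size, 37 were recovered at a log2 change of 0.5 and 100 at 1, with 5 false calls. With 14061 genes, 200 of 200 changed genes were recovered, with 1 false call. These changes were well over 2-fold and set only in genes above a minimum mean count. Recovery of smaller changes or at low counts was not tested.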

Additional observations from a re-analysis of the deposited data

How the results depend on the processing

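With lists of equal length there were 2461 Mut18-only regions, and 86.52% of WT regions were kept in both Mut18 libraries. Leaving out 1 library at a time gave 5951 to 12686 WT-only and 1819 to 4808 Mut18-only regions and 70.59% to 90.13% kept. Of shared regions, 1 was higher and 8 lower with ranks among all peaks, 214 and 372 with ranks of -log10 q, and 0 and 0 by limma with ranks within chromosomes (2723 and 3276 at an unadjusted p below 0.05). Leaving out 1 library gave 2 to 141 higher and 3 to 415 lower. The replicate block gave 258 higher and 555 lower, but replicate numbers did not pair the libraries (the correlation of their deviations was -0.010 in ATAC-seq and -0.012 in RNA). The TSS share difference ranged from -0.645 (without WT replicate 1) to 2.42 percentage points. Without a fold threshold, edgeR called 2849 genes higher and 2957 lower. The line-only counts with 1 library left out rest on a looser rule, in which a single list stands for a line. That rule by itself raises them. How far they rose differed with the library left out, and the part of list length or depth in this was not tested. The cause of the other shifts was not tested. The difference in genes with a promoter peak kept its sign, from -3.12 to -1.18 percentage points. Read depth was not taken into account, which limits what absence from a list can show.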
